A study of Mus musculus with 14 samples.

Results

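The genes that sense sterols, move them inside the cell and export them were followed in the liver of obese male C57Bl/6J mice. The set held 10 genes: Srebf2, Scap, Insig1, Insig2, Stard4, Npc1, Abca1, Abcg5, Abcg8 and Scarb1. They were taken by symbol from the annotated probe sets, using for each gene its brightest probe set by mean, and all 10 were measured among 22180 genes. None of the 10 passed the test in any of the 3 comparisons of diet and drug. The closest were Insig2, which lay above every control with canagliflozin, and Stard4, which lay below every control on 4 of 5 canagliflozin arrays.

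All mice were male C57Bl/6J. They ate a diet high in fat (60%, HFD) for 4 weeks, starting when 6 weeks old, and then entered 1 of 3 arms for 4 more weeks. The first arm received canagliflozin on HFD (n = 5), at 30 mg/kg in the sample labels and 25 to 30 mg/kg in the protocol. The second was held to the drug arm's body weight by a caloric restriction of 15 to 30% (n = 5). The third stayed on HFD as the control (n = 4). Canagliflozin is an inhibitor of the renal glucose transporter SGLT2, so the restricted arm serves to separate the drug from weight. No lean or chow-fed mice are among the 14 samples, so the HFD is shared by all groups. Each sample is 1 array of total liver RNA, and the labels count mice per group without tying them to arrays. P-values therefore measure the spread between these samples, which may in part be technical.

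Values are log2 RMA values per probe set. RMA corrects background, brings all arrays to 1 distribution and summarises the probes of each set. The array medians lay between 4.07 and 4.13, and pairwise correlations between arrays lay between 0.971 and 0.985. Hepatocyte markers were high, as 5 of 6 listed ones were measured and their means ran from 10.41 for Hnf4a to 14.01 for Alb. In bulk liver, fewer cells of a type and less RNA per cell cannot be told apart.

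Cholesterol level in the endoplasmic reticulum is read by Scap, which escorts the membrane-bound precursor of the transcription factor SREBP-2, encoded by Srebf2, to the Golgi when sterol is low. Insig1 and Insig2 encode the anchors that hold Scap back when sterol is plentiful. Released SREBP-2 switches on the cholesterol synthesis enzymes and, among others, Insig1, Stard4 and Srebf2 itself. Stard4 carries sterol through the cytosol and Npc1 releases it from lysosomes. On the export side, Abca1 loads cholesterol onto nascent HDL, Abcg5 and Abcg8 form a heterodimer that secretes sterols into bile, and Scarb1 takes cholesterol ester up from HDL. Abca1, Abcg5 and Abcg8 are known targets of the oxysterol receptors LXR.

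Promoter sequences are shown for the transcription factor gene Srebf2, its target Insig1 and the paired exporters Abcg5 and Abcg8. Their values are set side by side in the results. RefSeq promoter windows (GRCm38.p6), running from 250 bases before to 50 after an annotated start, were given for 7 of 10 members, with 11 windows in all. Stard4, Npc1 and Scarb1 are named only. In the Srebf2 window the capitals mark TCACCCCA, the core of a sterol regulatory element, and ATTGG, an inverted CCAAT box of the kind bound by NF-Y. In the Insig1 window they mark ATTGG and the E-box CACGTG. The Srebf2 line covers chr15:82147019-82147268 on the plus strand and the Insig1 line chr5:28071162-28071411 on the plus strand.
Srebf2: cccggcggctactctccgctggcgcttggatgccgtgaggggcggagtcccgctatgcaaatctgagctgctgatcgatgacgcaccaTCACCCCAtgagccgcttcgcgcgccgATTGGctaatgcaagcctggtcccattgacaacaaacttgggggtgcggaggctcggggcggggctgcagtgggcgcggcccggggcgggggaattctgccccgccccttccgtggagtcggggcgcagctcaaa
Insig1: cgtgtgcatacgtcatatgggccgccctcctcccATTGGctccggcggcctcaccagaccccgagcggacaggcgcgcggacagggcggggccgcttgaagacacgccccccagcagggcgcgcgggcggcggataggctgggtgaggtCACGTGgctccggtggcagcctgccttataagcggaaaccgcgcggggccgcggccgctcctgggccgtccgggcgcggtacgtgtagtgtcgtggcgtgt
The sterol element core began 162 bases and the CCAAT box 135 bases before the Srebf2 start. In the Insig1 window the CCAAT box began 216 bases and the E-box 101 bases before the start.

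For the exporters, the 109-base interval between the divergent Abcg5 and Abcg8 starts is shown, at chr17:84683012-84683120 on the plus strand. The capitals mark 2 matches to the GATA box AGATAA, which stand on the opposite strand. A second annotated Abcg8 start lies further off, inside Abcg5. In the Abca1 window an E-box began 147 bases before the start.
Abcg5-Abcg8 interval: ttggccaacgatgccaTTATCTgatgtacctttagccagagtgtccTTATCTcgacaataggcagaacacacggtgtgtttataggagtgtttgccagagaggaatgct
Abcg5 and Abcg8 are thus a pair of neighbours read in opposite directions from 1 short interval, and their products work as 1 transporter.

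Srebf2 also hosts a microRNA. The mature miR-33-5p, printed with its seed (bases 2 to 8) in capitals, lies at chr15:82198127-82198147, plus strand, inside the Srebf2 gene (82147269 to 82205379). It is known to repress Abca1.
miR-33-5p: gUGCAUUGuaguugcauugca
The probe set for the miR-33 hairpin averaged 2.53 over the 14 arrays, below the lower quartile of every array (2.99 to 3.06), and is not read as a level of this RNA.

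Each motif was searched on both strands in all 32851 RefSeq windows of the same 300 bases. TCACCCCA was found in 1.56% of windows, CACGTG in 7.15%, ATTGG in 37.4% and AGATAA in 11.2%. Both Scap windows overlap and held the same CACGTG, which lay before 1 start and after the other. Of 3 Insig2 windows 1 held ATTGG and AGATAA. A match describes letters only.

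The first comparison asked how the drug on HFD differed from HFD alone. No gene of the whole table passed an adjusted p of 0.05 in limma (0% of 22180), so 0 of 10 members did. At an unadjusted p of 0.05, 2 members, Insig2 and Stard4, passed against 6.51% of all genes. Canagliflozin means were above control means for 4 members and below them for 6, with a median difference of -0.03, beside -0.00085 over all genes. The smallest adjusted p over all genes was 0.133 (Carmil1), and for the members 0.634 (Stard4).

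Insig2, the Insig form whose liver transcript is known to be repressed by insulin, had the highest member difference. Its values were 8.34, 8.37, 8.50, 8.71 and 8.15 with canagliflozin, against 8.12, 8.06, 8.12 and 7.89 in HFD controls. Every canagliflozin array was above every control, although the lowest cleared the highest control by little. Only this member had groups that did not overlap, as did 1.95% of all genes. The difference was 0.37 ± 0.15 (SE), a 1.29-fold higher value with a 95% interval of 1.03 to 1.61. The unadjusted limma p was 0.0281 and the adjusted p 0.731. An exact permutation test over all 126 regroupings gave a two-sided p of 0.0159.

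Under restriction, Insig2 read 8.26, 8.07, 7.72, 8.60 and 8.52, which spans the controls. Of these 5 arrays, 3 were above every control and 1 was below every control. The canagliflozin mean was 8.41 ± 0.21 (SD, n = 5) and the restriction mean 8.23 ± 0.36 (SD, n = 5). The control mean was 8.05 ± 0.11 (SD, n = 4), so the middle value belonged to the restricted arm. Drug against restriction differed by 0.18 ± 0.14 (SE), with a 95% interval of -0.13 to 0.48 and a limma adjusted p of 0.891.

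Stard4, the cytosolic sterol carrier, had the lowest difference. Its values were 7.36, 7.32, 7.80, 7.23 and 7.72 with canagliflozin, against 7.77, 7.94, 8.23 and 7.88 in HFD controls. Canagliflozin replicate 3 lay just above the lowest control and the other 4 drug arrays were below every control. The difference was -0.47 ± 0.16 (SE), 1.39-fold lower, with a 95% interval of -0.81 to -0.13. The unadjusted limma p was 0.0101 and the adjusted p 0.634, and the exact permutation p was 0.0397 (two-sided).

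Restricted mice had Stard4 values of 7.41, 8.24, 7.89, 7.53 and 7.94, again overlapping both other groups. The restriction mean was 7.80 ± 0.34 (SD, n = 5), 0.15 below the controls. Canagliflozin against restriction gave -0.32 ± 0.15 (SE), with 3 of 5 drug arrays below every restricted array. Its limma adjusted p was 0.826 and the exact permutation p was 0.143.

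**Figure D1:**
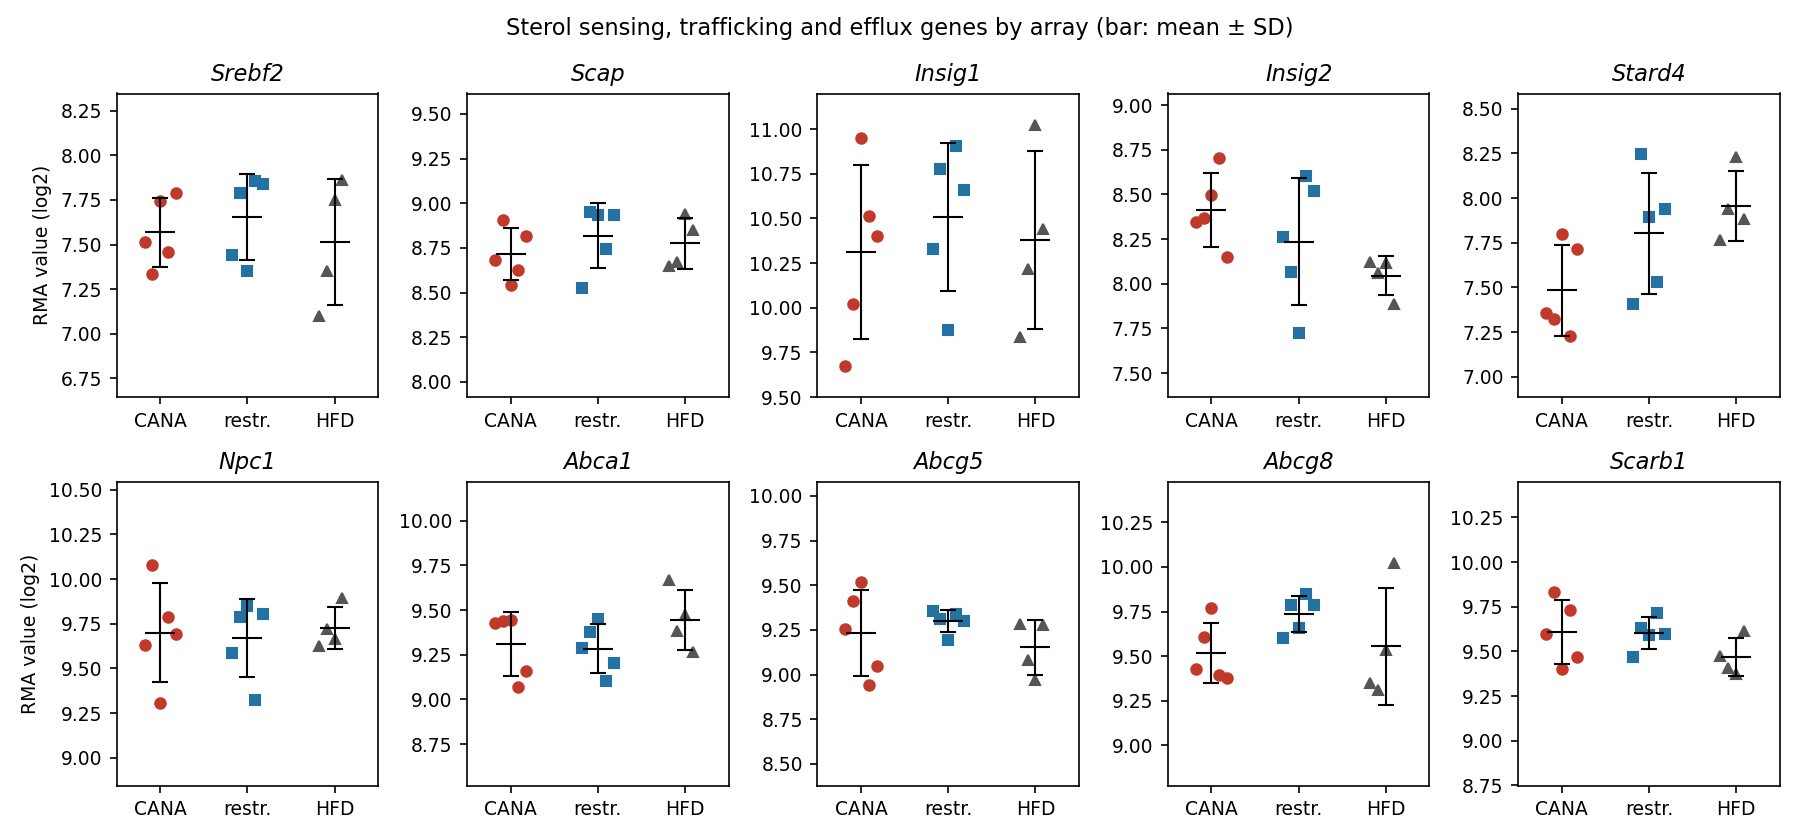
Log2 RMA value (vertical axes) of each of the 10 genes on every array, with canagliflozin (n = 5) left, caloric restriction (n = 5, restr.) in the middle and HFD control (n = 4) right. Bars give the mean and SD. Insig2 on canagliflozin arrays (8.15 to 8.71) sits above the controls (7.89 to 8.12), while the other 9 genes overlap between drug and control.

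The remaining genes of the sensing machinery did not separate the arms. Scap, the sterol-reading escort, had values of 8.68, 8.91, 8.54, 8.63 and 8.82 with canagliflozin. Restricted mice had 8.53, 8.95, 8.93, 8.74 and 8.93, and HFD controls 8.65, 8.67, 8.94 and 8.85. All 3 ranges overlapped, and canagliflozin against control gave -0.06 ± 0.11 (SE, limma adjusted p = 0.964).

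Srebf2 spread far more within each arm than between them. It read 7.51, 7.34, 7.74, 7.46 and 7.79 with canagliflozin. It read 7.44, 7.79, 7.35, 7.85 and 7.84 under restriction, and 7.10, 7.35, 7.75 and 7.86 in HFD controls. The controls alone hold both the lowest and the highest of the 14 values. Drug against control gave 0.05 ± 0.16 (SE, limma adjusted p = 0.981), and restriction against control gave 0.14 ± 0.16 (SE, limma adjusted p = 0.999).

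Insig1, a direct SREBP-2 target, was wider still. It had values of 9.68, 10.02, 10.95, 10.51 and 10.40 with canagliflozin. The restricted values were 10.33, 10.78, 9.87, 10.91 and 10.66, and the control values 9.84, 10.22, 11.02 and 10.44. Each arm covered more than 1 log2 unit, and the arms overlapped almost fully. Canagliflozin against control gave -0.07 ± 0.26 (SE, limma adjusted p = 0.985), with a 95% interval of -0.61 to 0.47.

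Npc1, the lysosomal exporter, had values of 9.63, 10.08, 9.31, 9.79 and 9.70 with canagliflozin. It had 9.59, 9.79, 9.85, 9.32 and 9.80 under restriction, and 9.63, 9.72, 9.66 and 9.89 in HFD controls. The drug arm held both the highest and the lowest value, and the controls fell inside it. Its mean with canagliflozin was 0.03 below the control mean (SE 0.14, limma adjusted p = 0.991).

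Among the exporters, Abca1 was lower on average in both treated arms. Its values were 9.43, 9.44, 9.44, 9.07 and 9.16 with canagliflozin, and 9.29, 9.38, 9.45, 9.10 and 9.21 under restriction. The controls had 9.67, 9.38, 9.47 and 9.27, and 2 arrays of each treated arm were below all of them. The differences from control were -0.14 ± 0.11 (SE, limma adjusted p = 0.882) with canagliflozin and -0.16 ± 0.11 (SE, limma adjusted p = 0.999) under restriction. Both comparisons use the same 4 controls. Abca1 is also made by macrophages, and 7 of 8 Kupffer cell and macrophage markers had higher means with canagliflozin than in controls (median 0.12). Under restriction 2 were higher and 6 lower than in controls (median -0.10), and all 8 were higher with canagliflozin than under restriction (median 0.21). None passed the adjusted test. Their summed log2 level ran from 9.86 to 10.35 with canagliflozin, 9.29 to 10.29 under restriction and 9.54 to 10.45 in controls. The faintest marker, Timd4, averaged 5.19, above the array medians. Their part in the Abca1 values was not tested.

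Abcg5 and Abcg8 were compared next. Abcg5 read 9.25, 9.41, 9.52, 8.94 and 9.05 with canagliflozin, 9.36, 9.31, 9.20, 9.34 and 9.30 under restriction, and 9.28, 9.08, 8.97 and 9.28 in controls. The restricted arrays were tightly grouped, with 4 of 5 above every control, and the drug arrays were scattered on both sides. Restriction against control gave 0.15 ± 0.12 (SE, limma adjusted p = 0.999).

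Abcg8 read 9.43, 9.61, 9.77, 9.40 and 9.38 with canagliflozin, 9.60, 9.79, 9.66, 9.85 and 9.79 under restriction, and 9.35, 9.31, 9.54 and 10.02 in controls. Restricted arrays were again close together, and 3 of 5 drug arrays were below all of them. Canagliflozin against restriction gave -0.22 ± 0.12 (SE), with a limma adjusted p of 0.836 and an exact permutation p of 0.0397. Control replicate 4 was the highest of all 14 arrays, and without it the restriction difference from control was 0.34, against 0.18 with it.

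Scarb1, the HDL receptor, had values of 9.60, 9.84, 9.40, 9.73 and 9.47 with canagliflozin. It had 9.47, 9.63, 9.59, 9.72 and 9.60 under restriction, and 9.47, 9.41, 9.37 and 9.61 in controls. In both treated arms 2 of 5 arrays were above every control. The differences from control were 0.14 ± 0.10 (SE, limma adjusted p = 0.860) with canagliflozin and 0.14 ± 0.10 (SE, limma adjusted p = 0.999) under restriction.

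The second comparison, restriction against HFD control, asked what weight matching by diet did. It called 0% of all genes and 0 of 10 members. At an unadjusted p of 0.05 it called 3.93% of genes and 0 of 10 members. Groups did not overlap for 1.4% of genes and for 0 members. The restricted means were above the control means for 7 members and below for Stard4, Npc1 and Abca1, with a median of 0.13, beside 0.0016 over all genes. The member differences ran from -0.16 for Abca1 to 0.19 for Insig2.

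The third comparison set canagliflozin against the restricted arm, and its contrast is also the test of whether the drug and diet effects differ. A single gene of 22180 passed (Rtkn, limma adjusted p = 0.0264), or 0.00451%, and 0 of 10 members. At an unadjusted p of 0.05 the shares were 6.05% of all genes and 0 of 10 members. Groups did not overlap for 0.929% of genes and 0 members. Member differences ran from -0.32 for Stard4 to 0.18 for Insig2, with 4 members higher and 6 lower.

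The intervals set what these arrays could resolve. Against controls, the half-width of the members' 95% intervals ran from 0.211 for Scarb1 to 0.542 for Insig1. Between the treated arms it ran from 0.199 to 0.511. The median half-width over all genes was 0.250 against controls. Scarb1 was thus measured more closely than the median gene, and Insig1 less closely.

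**Figure D2:**
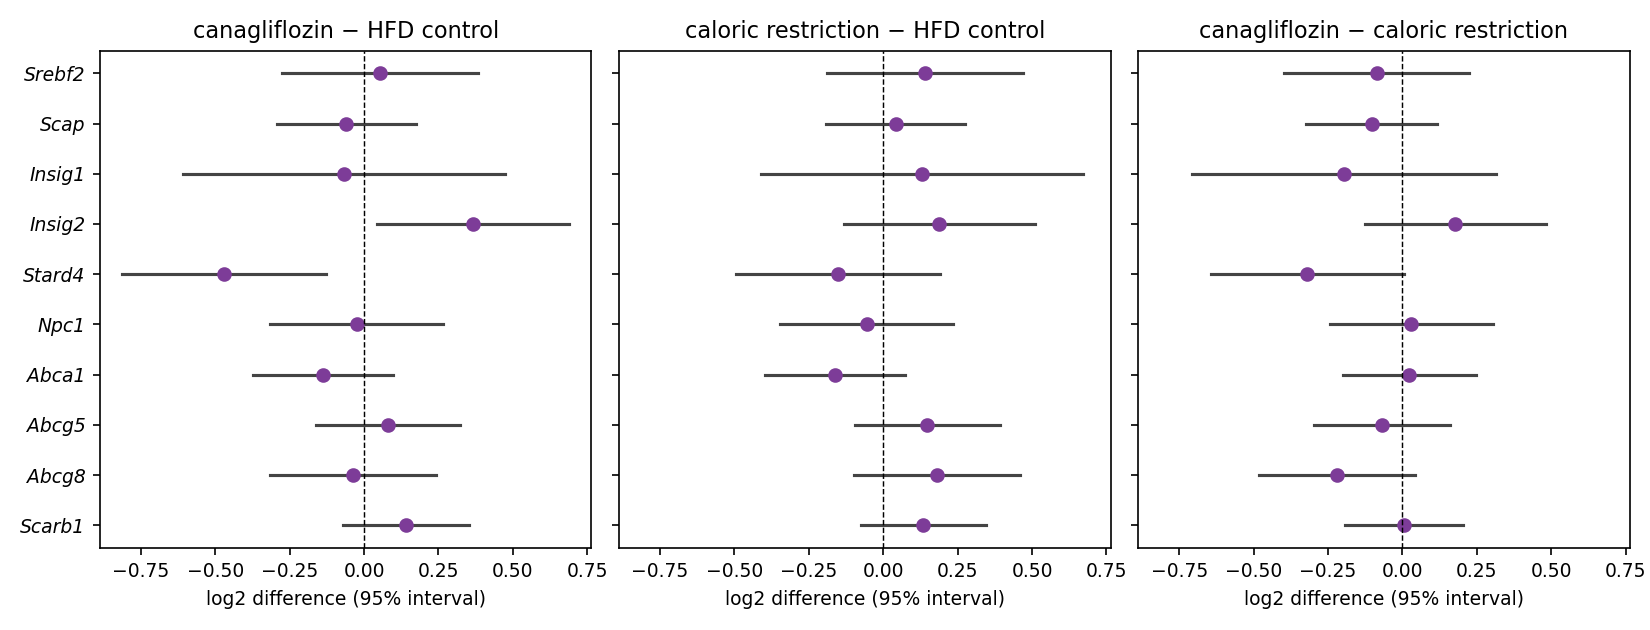
Log2 difference of group means (points) with the 95% interval of the limma fit (lines) for the 10 genes, in canagliflozin minus HFD control, caloric restriction minus HFD control, and canagliflozin minus caloric restriction. The intervals of Insig2 (0.04 to 0.69) and Stard4 (-0.81 to -0.13) leave out 0 in the first panel, and no other interval does in any panel.

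The members differed widely in how much they varied between arrays of the same arm. Insig1 had a within-group SD of 0.464, above 98.7% of all genes, and above 96.4% of the 249 genes of like level. Only 4.05% of its variance lay between groups. Stard4 (SD 0.275), Srebf2 (0.262) and Insig2 (0.254) followed, at the 88.3, 85.7 and 84.0 percentiles. Scarb1 was the steadiest at 0.133, the 19.1 percentile, and the median over all genes was 0.178. The share of variance between groups was 38.9% for Stard4 and 29.6% for Insig2, against a median of 12.7% over all genes. It was 1.26% for Npc1 and 5.62% for Srebf2.

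As a share of its range, Srebf2 had the widest gap between arrays of any member. Of its 14 values, 7 lay at 7.51 or below and 7 at 7.74 or above, and the gap of 0.23 between them was 30.3% of the whole range. The upper values came from 2 of 5 canagliflozin, 3 of 5 restricted and 2 of 4 control arrays. Every arm thus had arrays on both sides of this gap. Whether the gap exceeds what an even scatter of 14 values would give was not tested. For the other 9 members the widest such gap, with at least 3 arrays on each side, ran from 8.75% of the range for Npc1 to 26.3% for Scarb1.

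The cholesterol synthesis enzymes, the best known SREBP-2 targets, had their widest gap between nearly the same sets of arrays. Their level was taken as the mean of 16 measured enzymes, each centred on its own mean over the arrays. The enzyme mean lay between -0.66 and -0.07 on 8 arrays and between 0.40 and 0.60 on 6, with a gap of 0.46, or 36.8% of the range. The 6 upper arrays were 1 of 5 with canagliflozin, 3 of 5 under restriction and 2 of 4 controls. All 6 were also upper for Srebf2, and 7 arrays were lower for both. Canagliflozin replicate 3 was the exception, with Srebf2 at 7.74 and an enzyme mean of -0.09.

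Over all 14 arrays, Srebf2 had r = 0.88 and rho = 0.76 with the enzyme mean (permutation p = 0.00024 and 0.00224, adjusted over the 10 members 0.0024 and 0.0112), and r = 0.88 without the 2 arrays farthest from the median enzyme mean. With group means removed r was 0.93 and rho 0.88 (permutation p = 2e-05 and 8e-05), and with position in the deposited order removed as well r was 0.83. Permutations for these correlations shuffled all 14 arrays without regard to arm or position, so the p-values may be too small. Insig1 had r = 0.78 and rho = 0.78 (permutation p = 0.00157 and 0.0014, adjusted 0.00785 and 0.0112), and r = 0.71 without those 2 arrays. Its r was 0.78 with group means removed and 0.64 with position removed as well. Within arms of 4 or 5 arrays, r for Srebf2 was 0.88 with canagliflozin, 0.97 under restriction and 0.95 in controls. For Insig1 it was 0.57, 0.87 and 0.93 in the same order. Among canagliflozin arrays Insig1 was highest on replicate 3 (10.95), where the enzyme mean was -0.09.

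Stard4 had r = 0.64 and rho = 0.70 (permutation p = 0.0147 and 0.00676, adjusted 0.0489 and 0.0225), and r = 0.47 without the 2 outermost arrays. With group means removed r was 0.61 (permutation p = 0.0214, adjusted 0.0714), and it was 0.61 with position removed as well. Insig2, the other anchor gene, had r = -0.03 and rho = -0.09 (permutation p = 0.930 and 0.762), with 0.11 left without those arrays. Of the 10 members, these first 3 passed adjustment for r and rho.

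The values over all 14 arrays span the widest gap in the enzyme mean, so they were also computed in the sets on either side of it. The sets were cut from the same values that are read here, and whether the gap marks a true step was not tested. Those sets hold only 8 and 6 arrays and a narrowed range of the enzyme mean, which lowers the chance of seeing a relation. For Srebf2, r was 0.57 and rho 0.45 over the 8 lower arrays (exact permutation p = 0.137 and 0.267). Over the 6 upper arrays r was -0.51 and rho -0.77 (exact permutation p = 0.274 and 0.103). Insig1 had r = 0.71 and rho = 0.62 in the lower set (exact permutation p = 0.0479 and 0.115), and r = 0.74 and rho = 0.66 in the upper set (exact permutation p = 0.125 and 0.175).

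Stard4 had r = 0.46 and rho = 0.52 in the lower set (exact permutation p = 0.247 and 0.197), and r = 0.71 and rho = 0.77 in the upper set (exact permutation p = 0.126 and 0.103). Of 26 relations computed within sets, none passed adjustment (smallest adjusted exact permutation p = 0.547 for r and 0.427 for rho). Within sets this small, that leaves the relation of Srebf2 to the enzymes on either side of the gap unresolved.

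**Figure D3:**
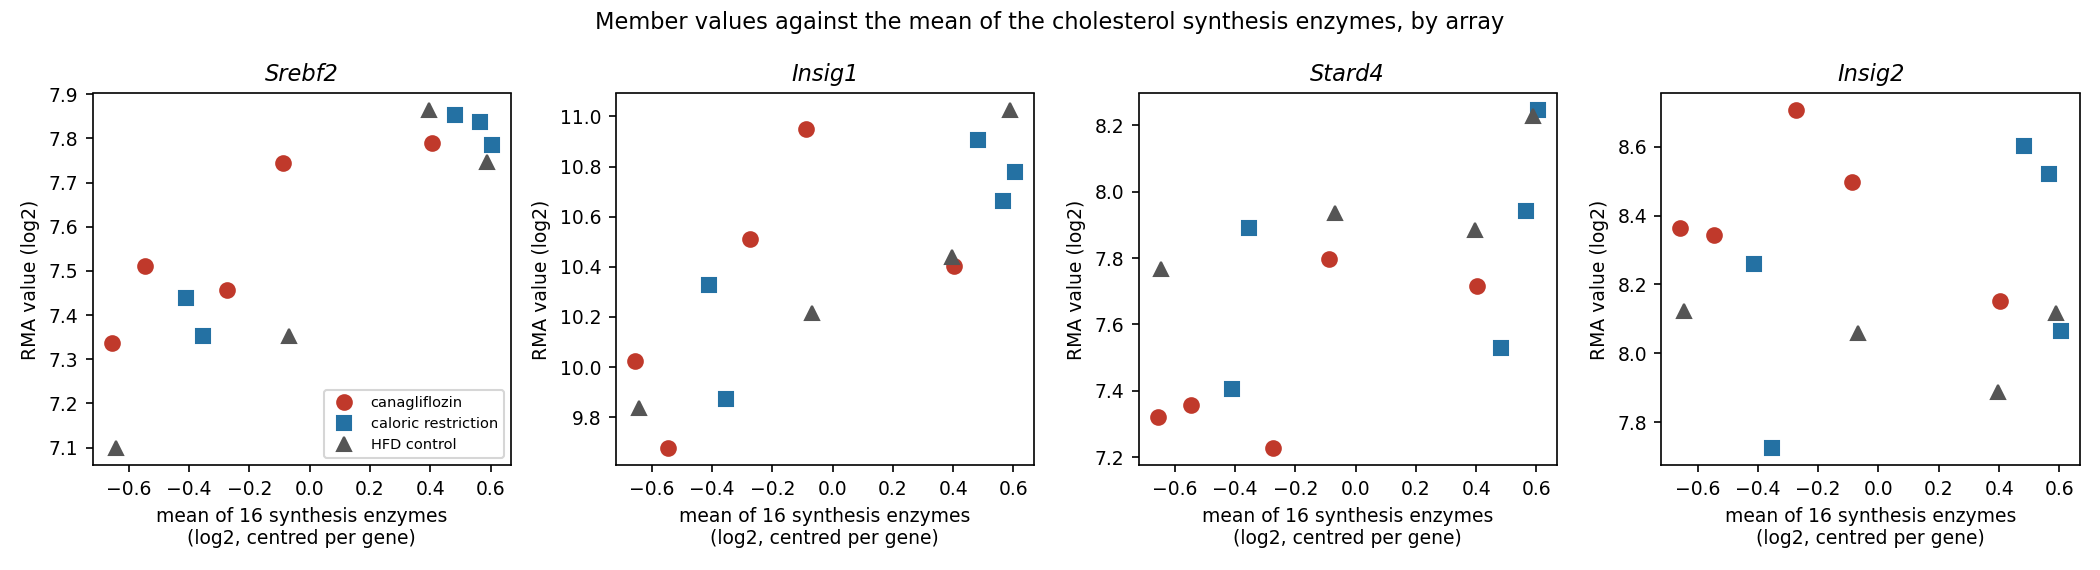
Log2 RMA value of Srebf2, Insig1, Stard4 and Insig2 (vertical axes) against the mean of 16 cholesterol synthesis enzymes (horizontal axes, log2, centred per gene), 1 point per array, with canagliflozin, caloric restriction and HFD control marked. The 6 arrays at 0.40 to 0.60 stand apart from the 8 at -0.66 to -0.07, and all 6 have Srebf2 of 7.74 or above.

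Upper and lower values ran with the order in which the arrays were deposited. Positions 10 to 14 held 5 arrays, and all 5 were upper for both Srebf2 and the enzymes. Of the first 9 arrays, only restriction replicate 2 was upper for both. The labels do not say whether this order is that of sacrifice, extraction or hybridisation. Each arm is spread over it, though not evenly. Canagliflozin replicate 5 was the only drug array among positions 10 to 14, beside restriction replicates 4 and 5 and control replicates 3 and 4. The enzyme mean had r = 0.78 and rho = 0.70 with position (permutation p = 0.00169 and 0.00704), and r = 0.72 without the 2 outermost arrays. Over all 14 arrays the position had r = 0.74 and rho = 0.78 with Srebf2 (permutation p = 0.0031 and 0.0016, adjusted over 10 members 0.0310 and 0.0160), and r = 0.78 without the 2 outermost arrays. Srebf2 was the only member that passed adjustment here. Insig1 had r = 0.60 and rho = 0.61 (permutation p = 0.0249 and 0.0230, adjusted 0.0831 and 0.115), and r = 0.48 without the 2 outermost arrays. With Abca1 it had r = -0.62 and rho = -0.53 (permutation p = 0.0173 and 0.0558, adjusted 0.0831 and 0.186), and r = -0.61 without those arrays.

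Fits with position as a covariate moved the members tied to it most. For canagliflozin against restriction, Srebf2 gave -0.0072 with position and -0.09 without it, and Insig1 gave -0.09 with position and -0.20 without it. For canagliflozin against control, Srebf2 gave 0.09 with position and 0.05 without it, and Insig1 gave -0.01 with position and -0.07 without it. Stard4 gave -0.45 with position and -0.47 without it in the same comparison, and Insig2 gave 0.37 either way. No member was called in any comparison with it.

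**Figure D4:**
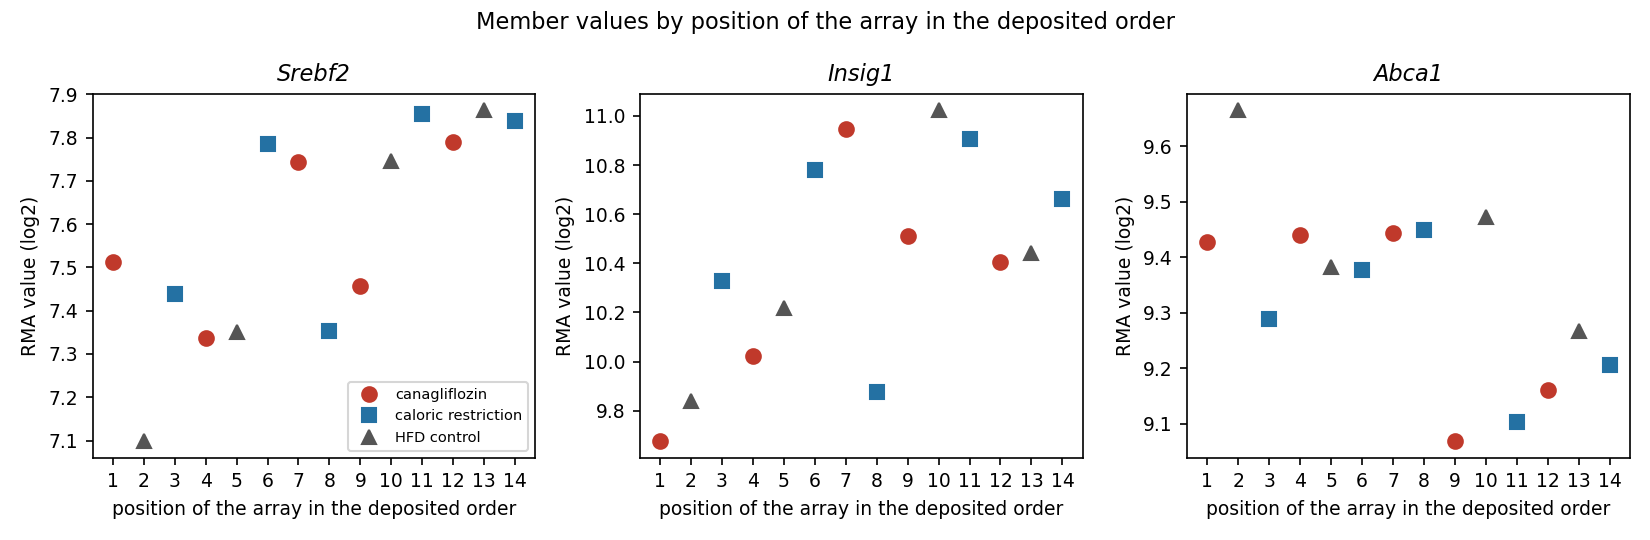
Log2 RMA value of Srebf2, Insig1 and Abca1 (vertical axes) by the position of the array in the deposited order (horizontal axes, 1 to 14), with canagliflozin, caloric restriction and HFD control marked. Srebf2 is at 7.74 or above on all of positions 10 to 14 and on positions 6 and 7.

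Pairs of members were compared over the 14 arrays for all 45 pairs, and 0 passed adjustment. Srebf2 and its target Insig1 had the highest r of the 45 at 0.76, with rho = 0.64 (permutation p = 0.00228 and 0.0159, adjusted 0.103 and 0.262). Without the 2 arrays farthest from the median of Srebf2, r was 0.68. With group means removed r was 0.76, and with position removed as well 0.59. On either side of the Srebf2 gap, where few arrays and a narrow range of Srebf2 remain, over the 7 lower arrays r was 0.27 and rho 0.14 (exact permutation p = 0.585 and 0.783). Over the 7 upper arrays r was -0.51 and rho -0.61 (exact permutation p = 0.245 and 0.167). Abcg5 and Abcg8, the transporter partners with the shared interval printed above, had r = 0.56 and rho = 0.53 over 14 arrays (permutation p = 0.0393 and 0.0548, adjusted 0.320 and 0.352), and r = 0.54 without the 2 arrays farthest from the median. After removing group means r was 0.53, and with position removed as well 0.81. Within arms r was 0.90 with canagliflozin, 0.20 under restriction and 0.35 in controls. The pairs Srebf2 and Abcg8 (r = 0.65) and Scap and Npc1 (r = 0.60) had a higher r over the 14 arrays.

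By the fixed rule, the 3 genes with the highest r over the 14 arrays were listed for each member as a description. These genes share the arrays and their order, and the list carries no test. Insig1 was closest to Mmab (r = 0.92), a gene of vitamin B12 metabolism that shares a promoter with the mevalonate kinase gene Mvk. Srebf2 was closest to Enpp3 (r = 0.89), Mvk (r = 0.89) and Cse1l (r = 0.88). Insig2 was closest to Nfil3 (r = 0.90), a transcription factor of the clock output. Stard4 was closest to Stat2 (r = 0.87), a transducer of interferon signals. Abcg8 was closest to Ehd1 (r = 0.92), Npc1 to the fibrinogen gene Fgb (r = 0.88), Abca1 to Tmem260 (r = 0.92), Abcg5 to Brf1 (r = 0.89), Scap to Rcc1 (r = 0.89) and Scarb1 to Fastk (r = 0.87).

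The neighbouring steps of the pathway were read from 5 lists. Of the SREBP processing genes, 8 of 10 were measured. With canagliflozin against control, 1 had a higher mean and 7 a lower one (median -0.10). The lowest was Srebf1, the fatty acid synthesis counterpart of Srebf2, at 8.24, 7.66, 8.95, 7.21 and 8.02 with canagliflozin, against 8.70, 8.39, 8.78 and 8.68 in controls. Drug replicate 3 was above every control and the other 4 arrays were below, giving -0.62 ± 0.24 (SE, limma adjusted p = 0.708). Mbtps2, the site-2 protease that frees SREBP from the membrane, gave 0.21 ± 0.11 (SE, limma adjusted p = 0.796). Under restriction, 3 were higher and 5 lower than control (median -0.05), with Fbxw7, a ligase component that turns over nuclear SREBP, at -0.23 ± 0.10 (SE, limma adjusted p = 0.999).

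The 16 measured synthesis enzymes (of 20 listed) had lower means than control for 13 and higher means for 3 with canagliflozin, with a median of -0.28. Under restriction 14 were higher and 2 lower than control (median 0.09). Between drug and restriction all 16 were lower with the drug (median -0.36), and none passed the adjusted test. As described, 1 of 5 drug arrays, 3 of 5 restricted arrays and 2 of 4 controls were in the upper set for these enzymes. The enzyme mean also ran with array position (r = 0.78). The part of either in the medians was not tested. Lss, lanosterol synthase, gave -0.87 ± 0.36 (SE, limma adjusted p = 0.801) and Fdps, farnesyl diphosphate synthase, -0.83 ± 0.37 (SE, limma adjusted p = 0.810) for canagliflozin against restriction. Hmgcs1, which makes HMG-CoA for the pathway, ranged from 8.03 to 9.60 with canagliflozin, 8.41 to 10.10 under restriction and 7.74 to 10.11 in controls. Mvd gave -0.31 ± 0.17 (SE, limma adjusted p = 0.828) for drug against restriction.

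Of the sterol uptake genes, 3 of 6 were measured. The endocytic receptor Lrp1, the absorptive transporter Npc1l1 and the receptor-degrading ligase Mylip gave -0.08, -0.05 and -0.03 for drug against control. All 3 were smaller than their standard errors, which ran from 0.11 to 0.14.

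The list of intracellular transport and esterification had 12 of 14 genes measured, with 5 higher and 7 lower for canagliflozin against control (median -0.04). Stard5, a relative of Stard4, had values of 8.86, 9.02, 9.27, 9.08 and 9.18 with canagliflozin, against 9.38, 9.52, 9.30, 9.53 and 9.35 under restriction. All 5 drug arrays were below all 5 restricted arrays, and the controls (8.89 to 9.45) overlapped both. The difference was -0.33 ± 0.11 (SE, limma unadjusted p = 0.00605, adjusted 0.683). Stard5 had the smallest p of the 12 measured genes of this list for drug against restriction. Over all genes in that comparison, groups did not overlap for 0.929%, and 6.05% had an unadjusted limma p under 0.05. Gramd1c, a carrier of plasma membrane cholesterol to the endoplasmic reticulum, was -0.23 ± 0.11 from control with canagliflozin (limma adjusted p = 0.771) and -0.25 ± 0.11 under restriction (limma adjusted p = 0.999). In both arms 4 of 5 arrays were below every control. Npc2, the soluble partner of Npc1, gave -0.03 for the drug and -0.05 for restriction against control.

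The list of LXR, efflux and HDL genes had 8 of 11 measured, with 5 higher and 3 lower for drug against control (median 0.04) and 6 higher and 2 lower for restriction against control (median 0.15). Nr1h3, the liver LXR, gave 0.04 ± 0.09 and 0.12 ± 0.09 (SE). Cyp7a1, which sets the pace of bile acid synthesis, averaged 11.18 ± 0.60 with canagliflozin, 10.97 ± 0.52 under restriction and 10.76 ± 0.51 in controls (SD, n = 5, 5 and 4). Its difference from control was 0.42 ± 0.30 with the drug (SE, limma adjusted p = 0.862), with 3 of 5 arrays above every control. Abcg1, which exports cholesterol to mature HDL, gave 0.23 ± 0.13 (SE, limma adjusted p = 0.999) under restriction against control. Pltp, which remodels HDL phospholipid, gave -0.43 ± 0.33 (SE, limma adjusted p = 0.887) for drug against restriction.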

How the data were processed

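Liver RNA of the 14 samples was labelled from 250 ng by the WT Plus protocol, 1 array per sample, per the labels' protocols. What the authors deposited is a table of log2 values, 1 per probe set. Per the submitters' processing notes these are RMA values from Affymetrix Expression Console. RMA gives all arrays 1 distribution, so a shift of all RNA would be lost. The software version, library files and build used were not given in the sources used here.

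Groups and replicate numbers came from the labels. The platform annotation paired 23521 of 41345 probe sets with 1 gene symbol and 1814 with several, and it left 16010 unlisted, which stay unnamed here. A gene with more than 1 probe set took the brightest. Scap and Npc1 each had a second set, with means of 3.94 and 3.20. The resulting 22180 genes were tested without a low-value filter. Some genes that the rule would name are left out here.

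limma 3.58.1 (lmFit, eBayes; R 4.3.3) was fitted with 1 mean per group over the 14 arrays. Benjamini-Hochberg adjustment ran over all genes, with a threshold of 0.05. The fit was tested on simulated data. Errors of differences are standard errors, and group errors are standard deviations. Exact permutation tests used every regrouping of the arrays of 2 groups, and correlations over 14 arrays used 100000 permutations. Relations with the enzyme mean, with array position and within sets of arrays were added after seeing the data. The members and gene lists were chosen with earlier results of these data known. Named genes were the 10 members, up to 3 genes with the smallest p per list and comparison, a few fixed genes, and the 3 genes most like each member, without unnamed models, small RNAs or olfactory and vomeronasal receptors.

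Alternatives comprised fits of only the groups compared, a filter at a mean log2 of 5, median centring, cyclic loess, a trended robust variance, array weights, a replicate block, other probe set rules, array position, exact permutation and leaving out each array. The number of arrays limits the precision.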

Additional observations from a re-analysis of the deposited data

Results flagged for a closer look

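By Dixon's criterion, no member had an array far from the rest of its group. Over the 10 members and the 47 other measured genes of the pathway lists, 6 of 171 groups tested had 1 array far from the others, and chance alone flags about 1 group in 20. Sc5d, a late sterol synthesis enzyme, was 10.58 in HFD control replicate 1, the lowest of its 4 controls. The lysosomal lipase gene Lipa was 10.11 in the same array, again the lowest of the 4. Mvd, an early synthesis enzyme, was 6.27 in HFD control replicate 3, the highest of its 4. Rnf145, a sterol-responsive ubiquitin ligase, was 5.90 in canagliflozin replicate 4, the lowest of its 5. The sterol carrier gene Scp2 was 12.65 in canagliflozin replicate 2, the highest of its 5. Lcat, the plasma enzyme that esterifies HDL cholesterol, was 11.83 in caloric restriction replicate 4, the highest of its 5.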

How the results depend on the processing

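No member passed the threshold in any comparison under any alternative. Of 610 member values computed, 27 had the other sign and 0 crossed it, and the lowest limma adjusted p was 0.355, for Stard4 at -0.55 without canagliflozin replicate 3. Among all genes, canagliflozin against HFD control called 1 gene with a filter at a mean log2 of 5, 1 with array position as a covariate, and 0 to 12 when 1 array was left out, with 12 without canagliflozin replicate 3. Restriction against control called 1 with position, and 0 to 0 without any 1 array. Canagliflozin against restriction, with 1 gene, called 0 with only these 2 groups, with all probe sets or by exact permutation, 2 with the replicate block, and 0 to 16 with 1 array left out (16 without canagliflozin replicate 3). The cause was not tested.

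In settings that left out no single array, the signs that turned belonged to differences near 0. For canagliflozin against restriction, Scarb1 was -0.00065 with median centring and Abca1 -0.021 with position. For restriction against control, Scap was -0.00084 as the mean of its probe sets. With 1 array left out, canagliflozin against control ranged from -0.25 to 0.15 for Insig1, -0.086 to 0.17 for Srebf2, -0.12 to 0.073 for Npc1 and -0.12 to 0.12 for Abcg8. Restriction against control ranged from -1.47e-05 to 0.26 for Srebf2, -0.0010 to 0.11 for Scap, -0.051 to 0.34 for Insig1 and -0.10 to 0.031 for Npc1. With all arrays kept, Srebf2 gave 0.14 and Insig1 0.13 in that comparison, so these turned signs were not limited to differences near 0. Their lowest values came without HFD control replicate 1. Canagliflozin against restriction ranged from -0.022 to 0.084 for Abca1, -0.050 to 0.058 for Scarb1, -0.065 to 0.13 for Npc1 and -0.14 to 0.0057 for Abcg5. For canagliflozin against control, Insig2 ranged from 0.29 to 0.43 and Stard4 from -0.55 to -0.38.

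Same-numbered arrays of different groups had correlated deviations in 3 of 13 pairs (over 0.1). The correlations ran from -0.089 to 0.198 for same-numbered pairs and from -0.214 to 0.182 for pairs with different numbers. Whether the numbers stand for a shared batch was not tested. With the replicate block, canagliflozin against control gave -0.52 for Stard4 (limma adjusted p = 0.599) and 0.36 for Insig2 (limma adjusted p = 0.780).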
